A study of Mus musculus with 20 samples.

Results

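The genes described here are 8 genes known for their high expression in striatal projection neurons: Drd2, Adora2a, Ppp1r1b, Pde10a, Rgs9, Adcy5, Syndig1l and Rasd2. They were chosen by gene symbol, and all 8 were found among the 23412 genes listed for each tissue. RNA was sequenced from amygdala and hippocampus of mice at postnatal day 21, in 20 libraries, to ask what neurons lose or gain without either of a pair of corepressor proteins, NCoR1 and SMRT. Each tissue had 3 NCoR1-KO, 3 SMRT-KO and 4 control libraries. In NCoR1-KO mice a floxed NCoR1 allele, and in SMRT-KO mice a floxed SMRT allele, was combined with Snap25-IRES2-cre, a driver that puts Cre recombinase under the Snap25 gene and so in neurons of all kinds, while glia and blood vessels keep the gene. Whether control mice carried Cre or floxed alleles is not given in the labels, nor whether the libraries of a group came from separate animals, so p-values speak only to the spread among the libraries, which can be technical. Libraries of striatum were not analysed here, and the labels do not describe how the tissues were dissected.

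Striatal projection neurons are the output cells of the striatum, which lies beside the amygdala. They read dopamine and adenosine through receptors that raise or lower cAMP, and cAMP acts through protein kinase A on DARPP-32, the product of Ppp1r1b. Cells of the direct pathway carry the D1 dopamine receptor with substance P and dynorphin, and cells of the indirect pathway carry Drd2, Adora2a and enkephalin. Ppp1r1b, Pde10a, Rgs9, Adcy5 and Rasd2 are used by both kinds. NCoR1 and SMRT bind nuclear receptors, among them thyroid hormone and retinoic acid receptors, and recruit histone deacetylases. Rasd2 was first described in rat striatum as a gene that responds to thyroid hormone.

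Promoter sequences are shown because the genes varied together across the amygdala libraries and because both corepressors act through factors that bind DNA at half-sites such as AGGTCA. RefSeq promoters on GRCm38.p6, from 250 bases before to 50 bases after a gene's start, were listed for 5 of the 8 genes. Capitals mark matches on either strand to any of 5 motifs. These are the half-site AGGTCA and its variant with another first letter, GGGTCA, then TGACGTCA, which is a cAMP response element, and the promoter elements TATAAA and CCAAT. The motifs do not overlap one another in these windows. The promoters of Drd2 (chr9:49340153-49340452, plus strand), Rasd2 (chr8:75213694-75213993, plus strand), Pde10a at the later of its 2 listed starts (chr17:8849735-8850034, plus strand) and Rgs9 (chr11:109298132-109298431, minus strand) read as follows.

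Drd2: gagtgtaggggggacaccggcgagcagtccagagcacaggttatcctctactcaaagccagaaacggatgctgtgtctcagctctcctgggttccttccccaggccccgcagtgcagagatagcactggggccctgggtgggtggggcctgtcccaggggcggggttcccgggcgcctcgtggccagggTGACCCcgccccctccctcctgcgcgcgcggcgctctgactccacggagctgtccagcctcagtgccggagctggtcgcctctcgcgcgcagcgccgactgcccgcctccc
Rasd2: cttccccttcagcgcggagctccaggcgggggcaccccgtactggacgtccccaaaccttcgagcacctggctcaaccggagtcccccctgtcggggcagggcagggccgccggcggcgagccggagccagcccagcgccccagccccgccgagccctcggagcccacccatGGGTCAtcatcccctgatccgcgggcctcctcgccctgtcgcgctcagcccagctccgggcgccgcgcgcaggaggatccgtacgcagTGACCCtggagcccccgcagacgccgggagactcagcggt
Pde10a: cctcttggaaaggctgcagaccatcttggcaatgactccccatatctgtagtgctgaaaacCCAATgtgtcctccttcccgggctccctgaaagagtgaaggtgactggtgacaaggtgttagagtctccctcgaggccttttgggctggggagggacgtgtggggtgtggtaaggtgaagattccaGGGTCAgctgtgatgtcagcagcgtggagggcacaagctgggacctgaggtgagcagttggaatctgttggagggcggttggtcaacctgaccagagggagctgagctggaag
Rgs9: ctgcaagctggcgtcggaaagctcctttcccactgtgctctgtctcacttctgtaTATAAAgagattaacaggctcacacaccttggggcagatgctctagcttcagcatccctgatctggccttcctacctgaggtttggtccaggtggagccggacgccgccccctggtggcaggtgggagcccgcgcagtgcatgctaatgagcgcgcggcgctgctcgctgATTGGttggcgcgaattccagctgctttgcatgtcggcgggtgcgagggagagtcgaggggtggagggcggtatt

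In these windows the hexamer GGGTCA or its reverse complement TGACCC occurred in 4 of the 5 genes with a listed promoter, which were Drd2, Rasd2, Adcy5 and Pde10a, and in 13.7% of 32851 listed mouse promoters. Rasd2 had 2 such matches, at -78 and 11 bases from its start. Pde10a had the match at its later listed start and not at the earlier one. Both of its windows lie inside the GENCODE span of the gene, which begins at 8525372, so its outermost annotated start was not examined. The shares of all promoters count windows rather than genes and are not matched for GC content. AGGTCA was found in 0 of the 5 genes and in 16.3% of all promoters, and TGACGTCA in 0 of the 5 and in 1.79% of all. TATAAA was found in Rgs9 alone (13.6% of all promoters), and CCAAT in Rgs9 and Pde10a (37.4% of all). The GC content of the 6 windows of these genes ran from 56.7% to 79.0%, against a median of 52.7% over all promoters. A match describes letters in a window and no binding was measured here.

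The genes lie on 7 chromosomes in GENCODE M21 on GRCm38, with 2 of them, Ppp1r1b (98348404 to 98357796) and Rgs9 (109225355 to 109298129), on chromosome 11. Ncor1 is on the same chromosome, 35.9 Mb from Ppp1r1b and 46.8 Mb from Rgs9. Drd2 spans 49340627 to 49408177 of chromosome 9, Adora2a 75316877 to 75334784 of chromosome 10, Pde10a 8525372 to 8986648 of chromosome 17, Adcy5 35154877 to 35305738 of chromosome 16, Syndig1l 84677277 to 84698831 of chromosome 12 and Rasd2 75213944 to 75224113 of chromosome 8. Adcy5 overlaps a predicted gene on its own strand, so reads there could be assigned to either. The values are per gene and do not separate isoforms.

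Values are TPM, a unit scaled for transcript length and library total, so that genes can be set side by side. TPM keeps no sequencing depth, so the counting error of a value is unknown. Ncor1 averaged 35.2 ± 3.51 TPM in NCoR1-KO amygdala (SD, n = 3) and 108.5 ± 25.1 in control amygdala (n = 4), and 49.2 ± 10.4 TPM in NCoR1-KO hippocampus and 116.7 ± 24.7 in control hippocampus. Snap25, the locus of the Cre driver, was at 55.3% to 59.7% of control in the 4 knockout groups. Knockout and control libraries thus differed in Snap25 as well as in the targeted gene, and the 2 cannot be told apart here. Summed over 10 markers of dentate gyrus and CA fields, the amygdala libraries held 170.2 to 196.4 TPM and the hippocampus libraries 538.5 to 732.8 TPM, so no library went against its tissue label. Single libraries stood apart in other ways. SMRT-KO 3 was the highest amygdala library for 8 of the 8 striatal genes, and amygdala control 2 the lowest for 7 of 8, with NCoR1-KO 2 lowest for Syndig1l. Hippocampus control 2 was the highest hippocampus library for 5 of 8. Hippocampus SMRT-KO 2 held 423.8 TPM of 6 thalamus markers, against 32.1 to 55.7 TPM in the other hippocampus libraries. Hippocampus NCoR1-KO 3 held 403.8 TPM of 6 choroid plexus markers.

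In amygdala, the 8 genes stood lower in NCoR1-KO than in SMRT-KO libraries without overlap. Of the control libraries only control 3 reached the SMRT-KO range, and the others lay below it. In bulk samples such as these, fewer cells of a type and less RNA per cell cannot be told apart. Nor can either be told from a smaller share of neighbouring striatum in the dissected tissue, which was not tested. Drd2, the Gi-coupled dopamine receptor of indirect-pathway cells, was at 19.2, 8.71 and 9.03 TPM in NCoR1-KO amygdala, 24.2, 25.1 and 42.5 TPM in SMRT-KO amygdala and 9.49, 4.2, 25.03 and 10.4 TPM in control amygdala. Adora2a, the adenosine receptor that raises cAMP in the same cells, was at 30.9, 10.1 and 13.1 TPM in NCoR1-KO libraries, 38.8, 34.9 and 60.4 TPM in SMRT-KO and 17.8, 2.21, 37.4 and 17.03 TPM in control amygdala. For both receptors control 3 lay within the SMRT-KO range and control 2 was the lowest of the 10 libraries. Adora2a had the widest spread of the 8 genes, 27.3-fold between its lowest and highest amygdala library, and Drd2 spread 10.1-fold.

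Adcy5, the main adenylyl cyclase of the striatum, was at 120.5, 99.1 and 108 TPM in NCoR1-KO libraries, 148, 126 and 195 TPM in SMRT-KO and 99.0, 92.7, 146 and 113 TPM in control amygdala. Pde10a, the phosphodiesterase that breaks down cAMP and cGMP, was at 57.8, 44.2 and 54.01 TPM in NCoR1-KO libraries, 94.03, 92.6 and 179 TPM in SMRT-KO and 48.8, 42.96, 111 and 58.2 TPM in control amygdala. Adcy5 varied least, 2.1-fold over the 10 libraries, and Pde10a 4.18-fold. Ppp1r1b, whose product inhibits protein phosphatase 1 once protein kinase A has phosphorylated it, was at 326, 149.6 and 179 TPM in NCoR1-KO libraries, 344, 328 and 551 TPM in SMRT-KO and 189, 114, 374 and 207 TPM in control amygdala, the highest level of the 8 genes in each of the 3 groups.

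Rgs9, which speeds the switching-off of Gi proteins below dopamine receptors, was at 50.2, 24.5 and 31.3 TPM in NCoR1-KO libraries, 76.5, 72.3 and 118 TPM in SMRT-KO and 34.2, 17.9, 86.8 and 40.7 TPM in control amygdala. Rasd2 encodes Rhes, a small GTPase enriched in striatum, and was at 69.3, 55.7 and 54.6 TPM in NCoR1-KO libraries, 84.3, 86.2 and 135 TPM in SMRT-KO and 44.5, 38.8, 88.4 and 54.3 TPM in control amygdala. Syndig1l, which encodes a membrane protein enriched in caudate and putamen, was at 26.6, 12.2 and 16.2 TPM in NCoR1-KO libraries, 42.4, 33.4 and 69.1 TPM in SMRT-KO and 16.6, 12.96, 39.8 and 21.6 TPM in control amygdala. The order of libraries was nearly the same in these 3 genes: SMRT-KO 3 highest, control 3 within or above the other SMRT-KO values, and control 2 or NCoR1-KO 2 lowest.

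**Figure D1:**
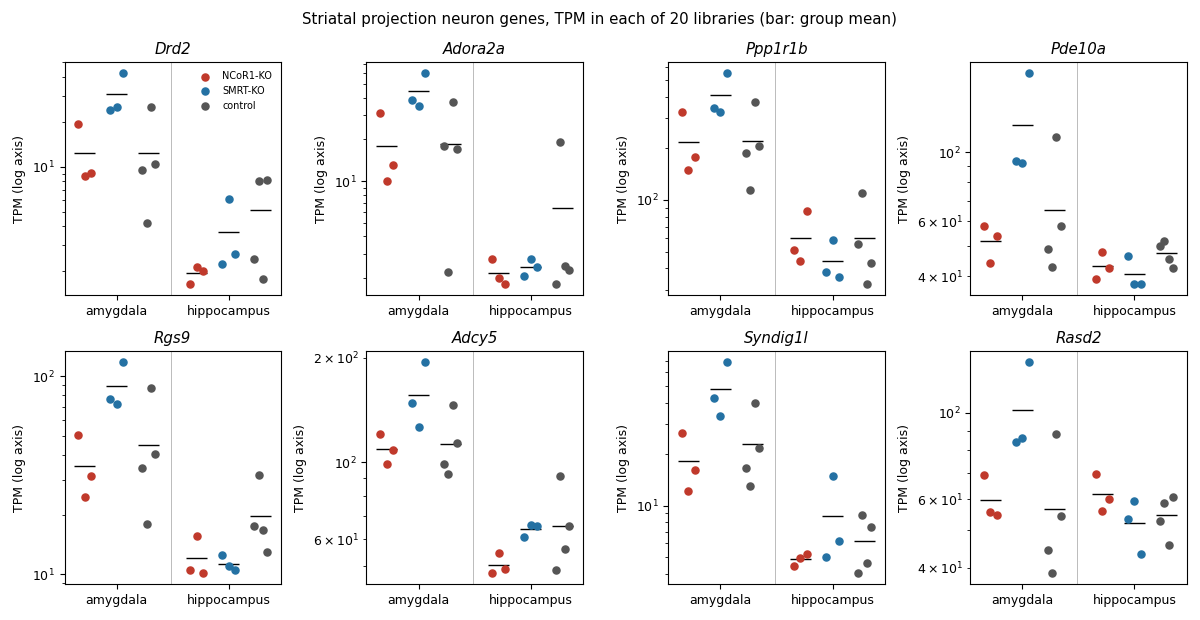
TPM (log axis) of each of the 8 genes in every library, with amygdala left of hippocampus and NCoR1-KO, SMRT-KO and control from left to right; bars are group means. In amygdala the 3 SMRT-KO points lie above the 3 NCoR1-KO points in every panel. Of the 4 control points, only that of control 3 reaches the SMRT-KO range.

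SMRT-KO against control amygdala asks whether these genes differ between mice without SMRT in neurons and controls, which also differed in the level of Snap25. All 8 averaged higher in SMRT-KO, between 139.0% (Adcy5) and 249.0% (Drd2) of the control mean, but none passed the test and none separated the groups. Of the 14606 genes tested in amygdala with limma, 0.11% passed at an adjusted p of 0.05 (7 higher and 9 lower), and in 5.85% every SMRT-KO library was above every control library; the count of the 8 genes was 0 on both. For each of the 8 genes, controls 1, 2 and 4 lay below all 3 SMRT-KO libraries and control 3 did not.

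The receptors had the largest log2 differences, 1.44 ± 0.46 (SE) for Drd2, with a limma adjusted p of 0.114, and 1.64 ± 0.68 for Adora2a, with an adjusted p of 0.199. In the cAMP enzymes the log2 difference was 0.47 ± 0.17 for Adcy5 (limma adjusted p 0.142) and 0.92 ± 0.31 for Pde10a (adjusted p 0.126). Ppp1r1b differed by 0.97 ± 0.37 (limma adjusted p 0.166), Rgs9 by 1.15 ± 0.43 (adjusted p 0.155) and Syndig1l by 1.11 ± 0.37 (adjusted p 0.123). Rasd2 came nearest to the threshold, with 0.88 ± 0.25 and a limma adjusted p of 0.0936. The median over the 8 genes was 1.04, and over all tested genes -0.03. In two-sided exact permutation tests, run per gene on log2(TPM + 1), p was 0.0857 for Drd2, Adora2a and Syndig1l and 0.114 for the other 5, where 35 arrangements allow no p below 0.0286.

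The size of these differences depended on single libraries. Without SMRT-KO 3 and control 2, the library highest in all 8 genes and the one lowest in 7, the log2 difference was 0.81 for Drd2, 0.68 for Adora2a, 0.46 for Ppp1r1b, 0.45 for Pde10a, 0.58 for Rgs9, 0.21 for Adcy5, 0.61 for Syndig1l and 0.50 for Rasd2, with limma adjusted p-values of 0.382 (Rasd2) to 0.577 (Ppp1r1b). Without control 3, Rasd2 passed the test, at 1.11 with a limma adjusted p of 0.0424, and no other member did. Sums of markers of other cell types also differed between the amygdala libraries. Summed over 6 oligodendrocyte markers, SMRT-KO amygdala held 3970 to 5763 TPM, NCoR1-KO amygdala 1986 to 2634 and control amygdala 1356 to 4631, with SMRT-KO 2 highest and control 2 lowest. Summed over 6 neocortex markers, SMRT-KO amygdala held 399.7 to 579.5 TPM, NCoR1-KO amygdala 301.8 to 371.1 and control amygdala 296.8 to 417.1, with SMRT-KO 2 highest and control 3 lowest. Summed over 5 markers of cholinergic interneurons, cells found in striatum and basal forebrain, SMRT-KO amygdala held 18.8 to 23.3 TPM, NCoR1-KO amygdala 4.97 to 16.5 and control amygdala 2.47 to 45.2, with control 3 highest and control 2 lowest. Summed over 10 markers of central and basolateral amygdala, SMRT-KO amygdala held 294.0 to 431.1 TPM, NCoR1-KO amygdala 474.5 to 518.6 and control amygdala 443.2 to 534.7, so the SMRT-KO libraries were below all other amygdala libraries. The same 10 genes held 253.7 to 458.3 TPM in the hippocampus libraries, so their sum does not separate the tissues. Of the 10, 5 rose and 1, Sema5a, fell in control amygdala relative to control hippocampus, where 32.5% of all genes were called. Every SMRT-KO library was below every control library in 1 of the 10 genes, as in 12.2% of all tested genes. None of these oligodendrocyte, neocortex, cholinergic or amygdala markers was at 0 in any amygdala library. Of the 5 cholinergic markers, however, 1 to 4 were under 1 TPM in each amygdala library, with 4 in control 2. The part of all these markers in the difference of the striatal genes was not tested.

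NCoR1-KO against control amygdala gave small differences in both directions: 4 of the 8 genes averaged higher and 4 lower on the log2 scale, and 0 passed, where limma called 0.411% of the 14606 genes (2 higher, 58 lower). The log2 difference ran from -0.25 ± 0.37 for Syndig1l to 0.26 ± 0.68 for Adora2a, and every limma adjusted p was at least 0.791 (Pde10a). Ppp1r1b averaged 218 ± 94.4 TPM in NCoR1-KO and 221 ± 110.0 TPM in control amygdala (SD, n = 3 and 4). The direction of all 8 genes turned with 1 library or another left out, so none is given here as a direction.

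**Figure D2:**
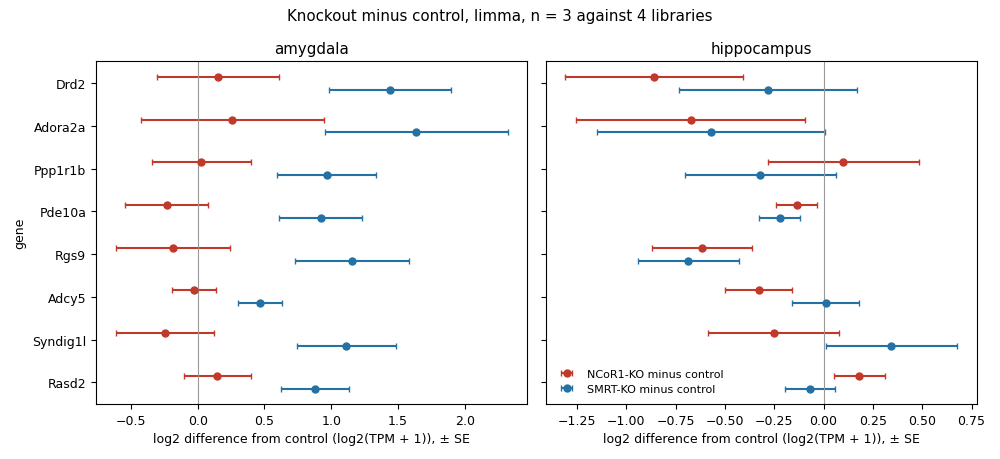
Log2 difference between knockout and control for each gene in amygdala and hippocampus, with points for the estimate and bars for its standard error from limma (3 knockout and 4 control libraries each). All 8 SMRT-KO points in amygdala lie to the right of 0, from 0.47 to 1.64, and no difference in either panel passed an adjusted p of 0.05.

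NCoR1-KO against SMRT-KO amygdala, which sets the knockouts beside each other, gave the clearest separation. The control libraries still enter the limma fit, through the estimate of the spread. Every NCoR1-KO library was below every SMRT-KO library in 8 of the 8 genes, against 19.6% of all tested genes. The 8 genes varied together across the amygdala libraries, so they do not count as 8 separate observations against that share. For Ppp1r1b the highest NCoR1-KO value, 325.82 TPM, was just below the lowest SMRT-KO value, 327.83 TPM. With 3 libraries on each side an exact permutation test has 20 arrangements and cannot go below 0.1, the p that each of the 8 genes reached. By limma 2 of the 8 fell in NCoR1-KO relative to SMRT-KO, against 11.5% of all tested genes called in either direction (735 higher, 944 lower). Pde10a averaged 51.99 ± 7.04 TPM in NCoR1-KO amygdala, against 122 ± 49.7 TPM in SMRT-KO amygdala (SD, n = 3 each), a log2 difference of -1.15 ± 0.33 with a limma adjusted p of 0.0485. Syndig1l averaged 18.3 ± 7.43 TPM in NCoR1-KO amygdala, against 48.3 ± 18.6 TPM in SMRT-KO amygdala, a log2 difference of -1.36 ± 0.39 with a limma adjusted p of 0.0498. Both calls sat at the threshold. They ended when any 1 of amygdala controls 1 and 4, NCoR1-KO 1, 2 and 3 or SMRT-KO 2 and 3 was left out, and that of Syndig1l also without SMRT-KO 1. They also ended with no filter on low values, where the limma adjusted p was 0.0788 for Pde10a and 0.0811 for Syndig1l, with quantile normalization (0.052 and 0.0556), with no trend in the variance (0.0714 and 0.0722) and without control 2 and SMRT-KO 3 together (0.116 and 0.119), and that of Syndig1l with a pseudocount of 0.1 TPM (0.0502). The range over all libraries left out in turn, one at a time, was -1.31 to -0.84 for Pde10a and -1.65 to -1.07 for Syndig1l, and without SMRT-KO 3 the adjusted p was 0.158 for Pde10a and 0.164 for Syndig1l.

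The other 6 genes had log2 differences between NCoR1-KO and SMRT-KO amygdala of -1.29 ± 0.49 (Drd2, limma adjusted p 0.106), -1.38 ± 0.73 (Adora2a, 0.226), -0.94 ± 0.40 (Ppp1r1b, 0.135), -1.34 ± 0.46 (Rgs9, 0.0787), -0.49 ± 0.18 (Adcy5, 0.0913) and -0.73 ± 0.27 (Rasd2, 0.0979). With only the NCoR1-KO and SMRT-KO libraries in the fit, 4 of these 6 passed, at limma adjusted p-values of 0.0335 (Drd2), 0.0451 (Adora2a), 0.0198 (Rgs9) and 0.0351 (Rasd2). Rgs9 also passed with amygdala control 2 or control 3 left out (adjusted p 0.0337 and 0.0343), although neither group of the contrast changes then, because the controls share in the estimate of the spread. With control 2 left out Drd2 and Adora2a passed too (0.0495 and 0.0461), and with control 3 left out Rasd2 did (0.0372). The median over the 8 genes was -1.22, and over all tested genes -0.0002. The sums of oligodendrocyte, neocortex and cholinergic markers given above were lower in all 3 NCoR1-KO than in all 3 SMRT-KO libraries, and the sum of amygdala markers was higher. Their part in the difference was not tested.

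The 8 genes varied together from one amygdala library to the next. Against the mean log2(TPM + 1) of 35 other genes of striatal projection neurons in the same library, Pearson's r over the 10 amygdala libraries was 0.915 for Adora2a, 0.986 for Drd2, 0.989 for Rgs9, 0.981 for Syndig1l, 0.98 for Ppp1r1b, 0.979 for Rasd2, and 0.968 for Pde10a and Adcy5. Spearman's rho was between 0.903 (Rasd2) and 0.988 (Ppp1r1b, Pde10a and Rgs9). All 8 relations had a permutation p, adjusted over the 8 by Benjamini-Hochberg, of at most 0.0001 for r and 0.00072 for rho, from 100000 permutations that allow no p below 1e-05. The 35 genes were listed as genes of the same cells, with earlier results of these data known, so these p-values are no independent support. No r of other genes against the same mean is given for comparison. Without the 2 libraries farthest from the median, r was 0.947 (Adora2a) to 0.984 (Rgs9). With each library taken as its deviation from the mean of its genotype, r was 0.886 (Adora2a) to 0.985 (Rgs9), so the relation also held within genotypes. The points share the library total, and TPM of all genes in a library are scaled together. In hippocampus no such r is given, because control 2 stood apart from the other 9 libraries.

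**Figure D3:**
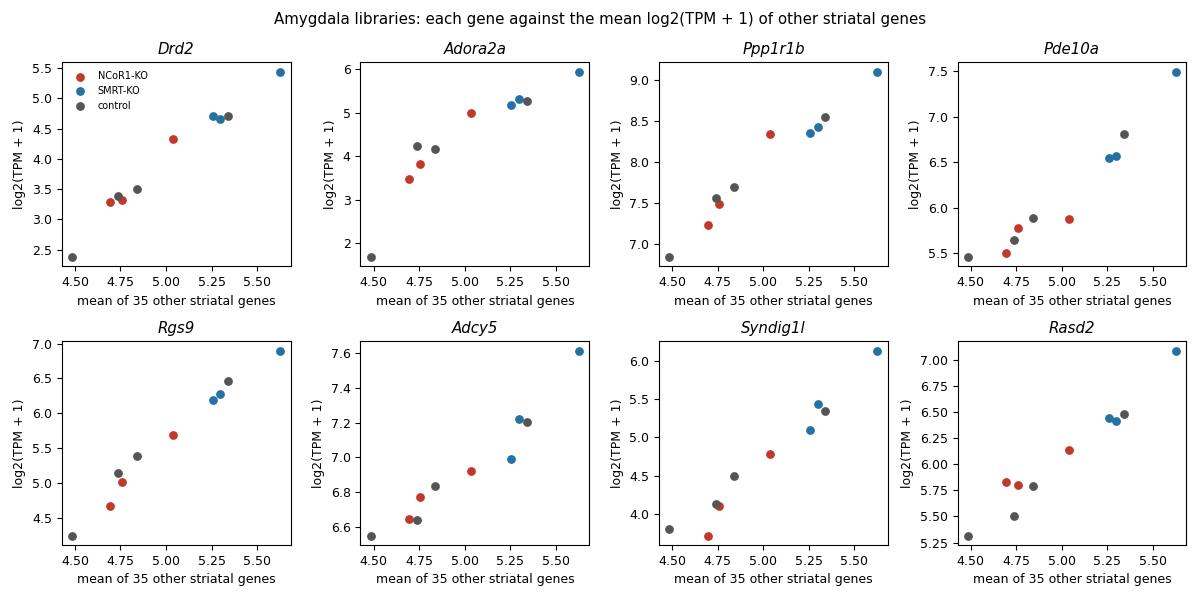
Each gene's log2(TPM + 1) in the 10 amygdala libraries against the mean log2(TPM + 1) of 35 other striatal genes in the same library, coloured by genotype. Points of all 3 genotypes fall along 1 rising line in each panel, with control 2 at the lower left and SMRT-KO 3 at the upper right.

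Outside the 8 genes, the amygdala pattern most like theirs was sought among 13157 genes by Pearson's r, over the 10 libraries, with the mean of the 8 genes after each was standardised. Among the 6 closest were Rasgrp2 (r = 0.997, 15.5 to 47.1 TPM), Rarb (0.992, 8.52 to 29.99 TPM), Asic4 (0.983, 12.6 to 30.7 TPM), Drd1a (0.981, 17.4 to 53.7 TPM) and Lrrc10b (0.980, 5.55 to 41.6 TPM). Rasgrp2, Rarb, Drd1a and Lrrc10b stood in the lists of other striatal genes, and Asic4 did not. Drd1a is the older symbol of the D1 dopamine receptor gene, and Rarb encodes a retinoic acid receptor. Among 13045 genes in hippocampus the closest were Pbx3 (0.984), Glra3 (0.963), Gpx3 (0.957), Spp1 (0.954), Drd1a (0.951) and Myh7 (0.949). Without the 2 hippocampus libraries farthest from the rest, control 2 and SMRT-KO 2, those 6 values lay between 0.603 (Myh7) and 0.883 (Pbx3).

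Because the genes moved with Drd1a, each was also expressed as a ratio to Drd1a in the same amygdala library, a measure chosen after the data were seen. Drd1a itself was at 32.5, 21.7 and 24.8 TPM in NCoR1-KO libraries, 38.1, 33.9 and 53.7 TPM in SMRT-KO and 20.04, 17.4, 41.8 and 23.0 TPM in control amygdala. The ratio for Rasd2 stayed between 2.12 and 2.56 in all 10 libraries, while Rasd2 itself spread 3.48-fold. That ratio did not extend to hippocampus, where Rasd2 was at 43.33 to 69.69 TPM and Drd1a at 1.66 to 10.8 TPM. The ratio for Pde10a was 2.0 ± 0.203 in NCoR1-KO (SD, n = 3), 2.85 ± 0.45 in SMRT-KO (n = 3) and 2.53 ± 0.103 in control libraries (n = 4). All 3 NCoR1-KO ratios of Pde10a were below all 4 control ratios (two-sided exact permutation p = 0.0286, the smallest possible), whereas its SMRT-KO and control ratios overlapped (exact p = 0.229). The ratio for Syndig1l was 0.676 ± 0.13 in NCoR1-KO, 1.13 ± 0.152 in SMRT-KO and 0.866 ± 0.099 in control libraries. All 3 SMRT-KO ratios of Syndig1l were above all 4 control ratios (exact permutation p = 0.0286), and its NCoR1-KO ratios overlapped those of controls (exact p = 0.114). Of the 16 comparisons of such a ratio with control these 2 reached the smallest p, and neither would pass a correction over 16. For Drd2 the ratio averaged 0.723 ± 0.0811 in SMRT-KO and 0.442 ± 0.148 in control libraries (exact p = 0.0571). For Adcy5 it averaged 3.75 ± 0.133 in SMRT-KO and 4.68 ± 0.803 in control libraries (exact p = 0.143), so that Adcy5 was the only 1 of the 8 whose ratio was lower in SMRT-KO than in control on average.

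**Figure D4:**
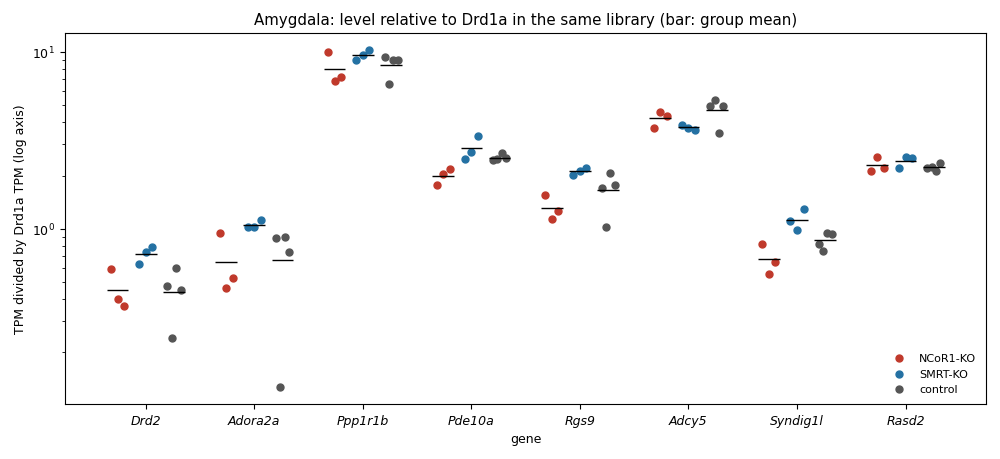
TPM of each gene divided by TPM of Drd1a in the same amygdala library (log axis), with NCoR1-KO, SMRT-KO and control from left to right; bars are group means. The ratio of Rasd2 keeps between 2.12 and 2.56, and for Pde10a the 3 NCoR1-KO points lie below the 4 control points.

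In hippocampus most of the 8 genes averaged lower than in amygdala, and none of them passed in a genotype comparison. Drd2 was at 1.63, 2.13 and 2.01 TPM in NCoR1-KO hippocampus, 2.24, 6.08 and 2.59 TPM in SMRT-KO hippocampus and 2.42, 8.06, 1.76 and 8.16 TPM in control hippocampus. Adora2a was at 2.75, 2.0 and 1.81 TPM in NCoR1-KO libraries, 2.09, 2.75 and 2.39 TPM in SMRT-KO and 1.83, 19.2, 2.45 and 2.29 TPM in control hippocampus. Control 2, with 19.2 TPM of Adora2a, stood far above the other 9 hippocampus libraries, none of which was above 2.75 TPM. The same library had the highest Drd1a (10.8 TPM), Tac1 (54.1 TPM) and Penk (174.0 TPM) of the 10, the genes for the D1 receptor, substance P and enkephalin. Amygdala control 2 was the lowest amygdala library for Drd1a (17.4 TPM), Tac1 (65.9 TPM) and Penk (131.1 TPM). Hippocampal markers in hippocampus control 2 summed to 542.6 TPM, near the bottom of the hippocampus range.

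Adcy5 was at 47.8, 54.5 and 49.1 TPM in NCoR1-KO libraries, 60.7, 65.99 and 65.6 TPM in SMRT-KO and 48.97, 90.97, 56.01 and 65.3 TPM in control hippocampus. Pde10a was at 39.2, 48.03 and 42.5 TPM in NCoR1-KO libraries, 46.5, 37.9 and 37.8 TPM in SMRT-KO and 50.2, 52.1, 45.6 and 42.5 TPM in control hippocampus, the narrowest spread of the 8 genes at 1.38-fold. Ppp1r1b was at 51.05, 44.4 and 85.8 TPM in NCoR1-KO libraries, 38.2, 58.3 and 35.7 TPM in SMRT-KO and 55.6, 111, 32.3 and 42.7 TPM in control hippocampus. The highest Ppp1r1b value of a knockout library was that of NCoR1-KO 3, the library with 403.8 TPM of choroid plexus markers; their part was not tested.

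Rgs9 was at 10.5, 15.6 and 10.1 TPM in NCoR1-KO libraries, 12.4, 10.9 and 10.5 TPM in SMRT-KO and 17.6, 31.5, 16.8 and 12.96 TPM in control hippocampus. Rasd2 was at 69.7, 55.98 and 60.1 TPM in NCoR1-KO libraries, 53.4, 59.5 and 43.3 TPM in SMRT-KO and 52.9, 58.8, 45.8 and 60.8 TPM in control hippocampus. Syndig1l was at 4.42, 4.94 and 5.18 TPM in NCoR1-KO libraries, 4.98, 14.9 and 6.24 TPM in SMRT-KO and 4.02, 8.75, 4.63 and 7.49 TPM in control hippocampus. The high Syndig1l value belonged to SMRT-KO 2, the library with 423.8 TPM of thalamus markers; their part was not tested.

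For NCoR1-KO against control hippocampus limma called 0% of genes (658 of 14501 had an unadjusted p under 0.05, and the smallest adjusted p was 0.79), so the count for the 8 genes was 0. The targeted gene Ncor1 was not called either, at -1.22 ± 0.20 (limma adjusted p 0.79), nor was Snap25, at -0.80 ± 0.12 (0.79). A count of 0 in this comparison therefore cannot be read as no change. The log2 differences of the 8 genes ran from -0.86 ± 0.45 for Drd2 to 0.18 ± 0.13 for Rasd2, with 6 below 0 and 2 above. Rgs9 had the smallest unadjusted p of the 8, with a log2 difference of -0.62 ± 0.25 (limma adjusted p 0.998) and an exact permutation p of 0.143. For SMRT-KO against control hippocampus limma again called 0% (813 unadjusted, smallest adjusted p 0.779), and 6 of the 8 were below 0. Rgs9 was the only one of the 8 with every SMRT-KO library below every control library, as were 2.71% of all genes. It averaged 11.3 ± 1.02 TPM in SMRT-KO and 19.7 ± 8.13 TPM in control hippocampus (SD, n = 3 and 4), a log2 difference of -0.68 ± 0.25 with a limma adjusted p of 0.779 and an exact permutation p of 0.0571. Without control 2 and SMRT-KO 2 of hippocampus the Rgs9 difference was -0.42 (limma adjusted p 0.702) for SMRT-KO and -0.38 (0.795) for NCoR1-KO. The Adora2a difference shrank without the same libraries to -0.01 for NCoR1-KO, against -0.67 with all libraries.

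NCoR1-KO against SMRT-KO hippocampus called 0% of genes by limma (956 unadjusted, smallest adjusted p 0.42). Drd2 and Adcy5 had every NCoR1-KO library below every SMRT-KO library, 2 of 8 genes against 5.01% of all. Drd2 differed by -0.58 ± 0.48 on the log2 scale (limma adjusted p 0.893) and Adcy5 by -0.34 ± 0.18 (adjusted p 0.795). Adcy5 averaged 50.5 ± 3.56 TPM in NCoR1-KO hippocampus, against 64.1 ± 2.91 TPM in SMRT-KO hippocampus (SD, n = 3 each).

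Between the tissues, 4 of the 8 genes rose in control amygdala relative to control hippocampus, where limma called 32.5% of the 14210 genes above the filter in amygdala and hippocampus alike (2741 higher and 1880 lower). Libraries were not paired across the tissues in this fit. Ppp1r1b averaged 221 ± 110.0 TPM in amygdala and 60.3 ± 34.8 TPM in hippocampus (SD, n = 4 each), a log2 difference of 1.88 ± 0.38 with a limma adjusted p of 0.0010. Adcy5 averaged 113 ± 24.0 TPM in amygdala and 65.3 ± 18.4 TPM in hippocampus, a log2 difference of 0.80 ± 0.17 (limma adjusted p 0.00141). Syndig1l averaged 22.7 ± 11.9 TPM in amygdala and 6.22 ± 2.26 TPM in hippocampus, a log2 difference of 1.65 ± 0.35 (limma adjusted p 0.00162). In these 3 genes every amygdala control was above every hippocampus control, as in 19.1% of all genes. Rgs9 averaged 44.9 ± 29.5 TPM in amygdala and 19.7 ± 8.13 TPM in hippocampus, with overlapping libraries and a log2 difference of 1.00 ± 0.36 (limma adjusted p 0.0392). The call for Rgs9 ended when any 1 of hippocampus controls 1, 3 and 4 or amygdala controls 1, 3 and 4 was left out, with limma adjusted p-values up to 0.147. It also ended with the replicate number as a block (adjusted p 0.0566), with no filter on low values (0.0502) and with only the control libraries in the fit (0.0969).

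Drd2 and Adora2a did not pass between the tissues, at log2 differences of 1.09 ± 0.46 (limma adjusted p 0.0772) and 1.5 ± 0.64 (adjusted p 0.0828). Both turned on control 2 of each tissue, high in hippocampus and low in amygdala. Left out alone, amygdala control 2 gave limma adjusted p-values of 0.0205 for Drd2 and 0.00499 for Adora2a, and hippocampus control 2 gave 0.0402 and 0.00725. Drd2 also passed without hippocampus control 4 (adjusted p 0.0457). Without control 2 of both tissues, a choice made after the data were seen, the difference was 1.72 for Drd2 (limma adjusted p 0.00999) and 2.89 for Adora2a (adjusted p 1.456e-05). Pde10a and Rasd2 were near level between the tissues in control mice, with log2 differences of 0.35 ± 0.24 (limma adjusted p 0.28) and -0.02 ± 0.20 (adjusted p 0.963). Rasd2 averaged 56.5 ± 22.2 TPM in amygdala and 54.6 ± 6.74 TPM in hippocampus. Of the 6 oligodendrocyte markers, 6 fell in control amygdala relative to control hippocampus, and their part was not tested.

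**Figure D5:**
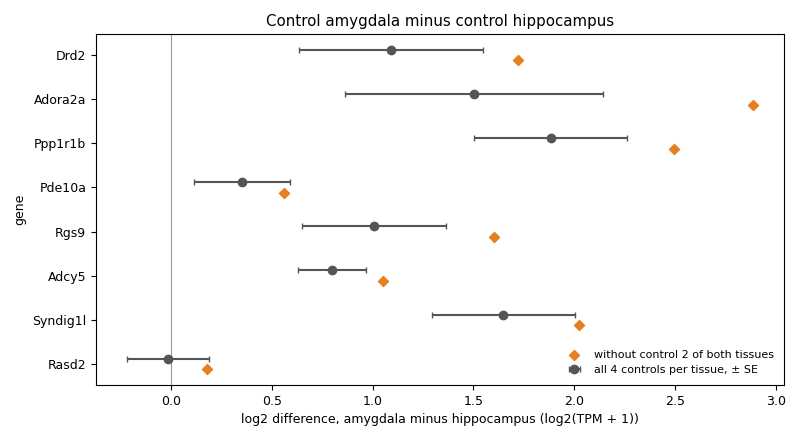
Log2 difference of each gene between control amygdala and control hippocampus, with points and standard errors from limma over 4 libraries per tissue, and diamonds for the value without control 2 of both tissues. Adora2a moves most between the settings, from 1.5 to 2.89, and Rasd2 lies next to 0 in both.

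The order of levels among the 8 genes differed by tissue. In control amygdala it was Ppp1r1b, Adcy5, Pde10a, Rasd2, Rgs9, Syndig1l, Adora2a and Drd2, from 221 ± 110.0 down to 12.3 ± 8.93 TPM. Each of the first 5 was above the next in 4 of 4 control libraries, and Syndig1l over Adora2a and Adora2a over Drd2 in 3 of 4. The ranges of all neighbours overlapped between libraries. In control hippocampus the order was Adcy5, Ppp1r1b, Rasd2, Pde10a, Rgs9, Adora2a, Syndig1l and Drd2. There Adcy5 was above Ppp1r1b, and Ppp1r1b above Rasd2, in 2 of 4 libraries only, and Adora2a was above Syndig1l in 1 of 4, so these neighbours did not differ beyond their spread. The gap between Pde10a, 47.6 ± 4.34 TPM, and Rgs9, 19.7 ± 8.13 TPM, was the one place in that order where the ranges did not overlap.

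Whether a knockout effect differed between the tissues was tested in 1 fit over all 20 libraries. For the NCoR1-KO effect limma called 0% of 14210 genes (522 unadjusted, smallest adjusted p 0.998), and the differences for the 8 genes ran from -0.09 ± 0.36 (Pde10a) to 1.01 ± 0.70 (Drd2) on the log2 scale. For the SMRT-KO effect limma also called 0% (1257 unadjusted, smallest adjusted p 0.12). All 8 genes had a larger SMRT-KO effect in amygdala than in hippocampus, with differences from 0.46 ± 0.26 (Adcy5) to 2.21 ± 0.98 (Adora2a), but none passed. Rgs9 had the smallest limma adjusted p, 0.377, at 1.84 ± 0.55, where its SMRT-KO difference from control was 1.15 in amygdala and -0.68 in hippocampus. The median of the 8 was 1.22, and that of all tested genes -0.02. Both tissues' effects draw on control 2, low in amygdala and high in hippocampus, and without it in both the differences of the 8 ran from 0.20 (Adcy5) to 1.24 (Rgs9).

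Other genes of the same cells and pathways were taken from lists. Of 8 further genes of direct-pathway cells, 7 were higher in SMRT-KO than in control amygdala and 1 lower, of 5 of indirect-pathway cells 5 were higher, and of 22 shared by both kinds 19 were higher and 3 lower. None of these 35 passed, and their median log2 differences were 0.62, 0.39 and 0.42 beside 1.04 for the 8 genes. In NCoR1-KO against SMRT-KO amygdala 1 direct-pathway gene, 0 indirect-pathway genes and 3 shared genes fell and none rose, where 11.5% of all tested genes were called. They were Pdyn, which encodes prodynorphin, at -1.0 ± 0.24 (limma adjusted p 0.0295), the transcription factor gene Foxp1 at -1.08 ± 0.22 (0.0176), the G protein subunit gene Gng7 at -0.70 ± 0.20 (0.047) and Gprin3, which encodes a G protein regulated inducer of neurite outgrowth, at -2.39 ± 0.33 (0.00435).

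Of 32 partners in dopamine, cAMP and phosphatase signalling, 30 were tested in amygdala, and between NCoR1-KO and SMRT-KO 2 rose and 3 fell, where 11.5% of all tested genes were called (735 higher, 944 lower). Gnas, which encodes the stimulatory G protein subunit, rose by 0.28 ± 0.05 and Prkaca, which encodes a catalytic subunit of protein kinase A, by 0.24 ± 0.05 (limma adjusted p 0.0157 and 0.0134). The adenylyl cyclase gene Adcy1 fell by 0.70 ± 0.14 and the adenosine receptor gene Adora1 by 0.48 ± 0.13 (limma adjusted p 0.016 and 0.0414), as did Rgs7bp, a binding partner of the Rgs9 protein family, by 0.44 ± 0.11 (0.0336). Among 7 close relatives of the 8 genes, 2 rose and 2 fell in the same comparison, where the same 11.5% of all genes were called. Syndig1, the relative of Syndig1l, fell by 0.59 ± 0.16 (limma adjusted p 0.0446), while Rasd1, the relative of Rasd2, rose by 0.62 ± 0.15 (0.0294). Adcy6, the cyclase nearest to Adcy5, rose by 0.55 ± 0.10 (limma adjusted p 0.0115), and Rgs6 fell by 0.59 ± 0.15 (0.0329). The median of the 30 partners was 0.01 and that of the 7 relatives -0.12.

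Between control amygdala and control hippocampus, where 32.5% of all genes were called, 6 of 8 direct-pathway genes rose and 1 fell, 4 of 5 indirect-pathway genes rose, and 14 of 22 shared genes rose and 2 fell. Drd1a differed by 2.43 ± 0.35 (limma adjusted p 4.56e-05), Penk by 2.5 ± 0.50 (0.00090) and Tac1 by 2.09 ± 0.37 (0.000314). Lrrc10b ran the other way, at -2.38 ± 0.32 (2e-05), although its pattern over the amygdala libraries was among the closest to the 8 genes. Rasd1 was also lower in amygdala, at -2.70 ± 0.12 (limma adjusted p 1.21e-10), where Rasd2 was level. Of the signalling partners 10 rose and 6 fell, and of the relatives 3 rose and 3 fell.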

How the data were processed

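The authors deposited gene-level TPM values, 1 table per tissue, rounded to 2 decimals and summing to 999999 to 1000001 in each library. RSEM 1.3.3, STAR 2.5.3a, fastp 0.21.0 and bcl2fastq are named, without role or order, in the submitters' processing notes, with mm10 as build; no annotation is named in them. Each of the 20 columns matched 1 label. Depth per sample is unknown, because TPM keeps none.

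From these, log2(TPM + 1) was tested with limma 3.58.1 in R 4.3.3, with a trend of the variance, on genes with 1 TPM or more in 3 or more of a tissue's 10 libraries, with all 3 genotypes in the fit. The 8 genes all passed this filter. Both tissues were fitted jointly for comparisons between them, with no pairing of libraries across tissues. P-values were adjusted by Benjamini-Hochberg over all genes tested, with 0.05 as threshold, and differences are of log2(TPM + 1), a scale that understates the change of low genes. Single genes were also compared by two-sided exact permutation tests. The tests were tried on simulated data. Alternatives were a pseudocount of 0.1 TPM, no filter, a filter at a mean of 5 TPM, quantile normalization, no variance trend, fits of the compared groups only, a replicate block and leaving out libraries.

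All 8 genes are named. From other lists, written from general knowledge, genes that passed and the 4 highest in level could be named, and per tissue the 6 genes most like the 8. The genes, lists and rules were chosen with earlier results of these data known. Positions are from GENCODE M21 and promoters from RefSeq (GRCm38.p6). The level of the gene targeted in SMRT-KO, and 1 of the genes most like the 8, are not reported here.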

Additional observations from a re-analysis of the deposited data

Results flagged for a closer look

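Adora2a in hippocampus control 2, at 19.19 TPM, was far from the other 3 control libraries of that tissue, which held 1.83, 2.45 and 2.29 TPM. The gap to its neighbour took up more of the range of the 4 libraries than Dixon's 95% limit allows. Control groups of 4 were examined for the 8 genes in both tissues, 16 groups in all, and 1 was marked in this way. Chance marks about 1 in 20 groups.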

How the results depend on the processing

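The 72 values of the 8 genes were recomputed under 1524 alternatives in all: 1414 kept their direction and their side of the threshold, 33 lost significance, 17 gained it and 60 turned direction. All values that turned were differences that had not passed. No call changed direction, and the cause of a change was not tested.

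Counts of genes past the threshold moved more. NCoR1-KO against control amygdala gave 60 genes, with 16 when no filter on low values was used, 17 with no trend in the variance, 4 with only those groups in the fit, 13 without control 2 and SMRT-KO 3, and 0 to 126 with 1 library left out. SMRT-KO against control amygdala gave 16 genes, with 2 when no filter was used, 143 with a filter at a mean of 5 TPM, 3 with no trend, 2 with only those groups in the fit, 0 without control 2 and SMRT-KO 3, and 0 to 697 with 1 library left out. NCoR1-KO against SMRT-KO amygdala gave 1679 genes, with 472 without control 2 and SMRT-KO 3 and 246 to 2218 with 1 library left out. In hippocampus NCoR1-KO against control gave 0 genes, with 1 under quantile normalization, 1 with only those groups in the fit and 0 to 1 with 1 library left out; SMRT-KO against control gave 0, with 1 under quantile normalization and 0 to 1. NCoR1-KO against SMRT-KO hippocampus gave 0, with 5 when only those groups were fitted, 1 without control 2 and SMRT-KO 2, and 0 to 1. The difference between tissues in the SMRT-KO effect gave 0 genes, with 1 when no filter was used and 0 to 18.

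Of the differences that turned, quantile normalization gave -0.00454 for Ppp1r1b in NCoR1-KO against control amygdala. Without control 2 and SMRT-KO 3 the same comparison gave -0.22 (Drd2), -0.46 (Adora2a), -0.25 (Ppp1r1b) and -0.0062 (Rasd2). Without hippocampus control 2 and SMRT-KO 2, Adora2a gave 0.026 in SMRT-KO against control hippocampus. Without control 2 of both tissues, Rasd2 gave 0.18 between control amygdala and control hippocampus, and the difference between tissues in the NCoR1-KO effect gave -0.45 (Adora2a), -0.16 (Rgs9) and -0.37 (Syndig1l). With 1 library left out, ranges that crossed 0 were, for NCoR1-KO against control amygdala, -0.22 to 0.55 (Drd2), -0.46 to 0.73 (Adora2a), -0.30 to 0.32 (Ppp1r1b), -0.39 to 0.057 (Pde10a), -0.54 to 0.20 (Rgs9), -0.11 to 0.10 (Adcy5), -0.54 to 0.0563 (Syndig1l) and -0.00622 to 0.38 (Rasd2). For NCoR1-KO against control hippocampus the range was -0.18 to 0.44 (Ppp1r1b). For SMRT-KO against control hippocampus the ranges were -0.85 to 0.0968 (Adora2a), -0.56 to 0.0185 (Ppp1r1b), -0.11 to 0.18 (Adcy5), -0.0799 to 0.62 (Syndig1l) and -0.17 to 0.0551 (Rasd2). For NCoR1-KO against SMRT-KO hippocampus it was -0.12 to 0.17 (Rgs9), between the control tissues -0.25 to 0.14 (Rasd2), and for the difference in NCoR1-KO effect -0.41 to 0.22 (Ppp1r1b), -0.26 to 0.19 (Pde10a), -0.28 to 0.31 (Syndig1l) and -0.19 to 0.20 (Rasd2).

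The labels do not say what a replicate number stands for, and whether same-numbered libraries of the 2 tissues share an animal is not known. Over 18 pairs within a tissue the correlation of same-numbered deviations from group means ran from -0.49 to 0.499, with 4 above 0.1. Across tissues it was above 0 in 10 of 10 pairs, from 0.000814 to 0.48, with 7 above 0.1. The numbers were not taken as a pairing, because some pairs were at or below 0.1. That limit cannot show that the animals were separate, since differently numbered pairs were not compared. A pairing of the tissues within each genotype was not fitted, and the replicate block joins all libraries of a number across genotypes. With the number as a replicate block the counts were 4 genes for SMRT-KO against control amygdala, 854 for NCoR1-KO against SMRT-KO amygdala, 41 for NCoR1-KO against control amygdala and 4514 between the control tissues, Ppp1r1b gave -0.012 in NCoR1-KO against control hippocampus, and Rgs9 between the control tissues had a limma adjusted p of 0.0566. The calls of Pde10a and Syndig1l in NCoR1-KO against SMRT-KO amygdala held under the block (limma adjusted p 0.031 and 0.0441). TPM holds no depth, so counting error could not be set against the low values of Drd2 and Adora2a in hippocampus.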
